A study of Homo sapiens with 36 samples.

Results

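Human THP-1 macrophages labelled as IRG1 knockouts (KO) were compared with wild-type cells (WT) after 24 h of stimulation with LPS and IFN-gamma. The 6 libraries, 3 for KO and 3 for WT, were chosen by genotype, treatment and time in their titles, out of 36 in the series. THP-1 is a human acute monocytic leukaemia line, and both genotypes had first been turned into macrophage-like cells with PMA, a phorbol ester, at 100 nM for 72 h. LPS and IFN-gamma were then given at 200 ng/mL each. The other groups drawn on below are KO and WT cells with vehicle at 24 h and stimulated KO and WT cells at 6 h and 12 h, with 3 libraries in each. How the knockout was made, and whether it is 1 clone, is not given in the sources used here, nor whether replicates came from separate cultures. The p-values rest on the spread between libraries of a group, estimated jointly over the groups of all 36 libraries. That spread may be technical. Every value is a deposited log2 expression value, the unit behind the logarithm is not stated, and sequencing depth is unknown.

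IRG1, now named ACOD1, encodes a mitochondrial enzyme that makes itaconate from cis-aconitate, an intermediate of the citric acid cycle. In macrophages the gene is switched on by LPS and interferons, and itaconate is known to inhibit succinate dehydrogenase and to modify cysteines of regulatory proteins such as KEAP1. LPS acts through TLR4, and IFN-gamma acts through IRF1 and CIITA on guanylate-binding proteins and on class II antigen presentation.

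Macrophage genes were present in both genotypes. All 10 markers listed for macrophages were measured, and their summed value on the linear scale ran from 14416.6 to 15172.9 in KO and from 16219.9 to 24600.5 in WT libraries. The transcription factor SPI1 had values of 11.84, 11.45 and 11.73 in KO and 11.46, 11.68 and 11.50 in WT libraries. Of 15 listed markers of other cell types 9 were analysed here, and none of these was removed by the low-value filter. The T cell gene CD3D was at or near 0 in all 6 libraries, and the endothelial genes CDH5 and VWF stayed below 2. The summed level of these 9 markers was 49.4 to 50.5 in KO and 94.1 to 263.8 in WT libraries, and WT replicate 3 held the highest. One of them, the collagen gene COL1A1, was lower in KO cells (3.72, 3.43 and 3.74 in KO, 5.69, 6.08 and 6.48 in WT, log2 change -2.46 ± 0.44, limma adjusted p = 0.00101). The epithelial gene CDH1 lay the other way without passing the test (3.91, 3.75 and 2.47 in KO, 0.51, 2.36 and 0.17 in WT, log2 change 2.36 ± 0.79, adjusted p = 0.0699). With the replicate number as a block in the fit, 4 of the 9 were lower, COL1A1 among them, and 1 higher (CDH1, adjusted p = 0.0325). In bulk RNA fewer cells of a type and less RNA per cell cannot be told apart. The part of these markers in the results was not tested.

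The targeted transcript was still detected in KO cells. ACOD1 had values of 8.31, 9.78 and 8.60 in KO libraries, against 10.95, 10.96 and 9.20 in WT libraries. The groups overlapped at KO replicate 2, which lay above WT replicate 3. The log2 change was -1.48 ± 0.47 (SE, n = 3 each), which did not pass the test (limma with Benjamini-Hochberg adjustment, adjusted p = 0.0597). Leaving out WT replicate 3 gave -2.06 ± 0.47 (adjusted p = 0.0174), without KO replicate 2 it was -1.92 (adjusted p = 0.02), and with the replicate number as a block the adjusted p was 0.0264. ACOD1 was also lower at 6 h (-3.31 ± 0.47, adjusted p = 3.74e-05) and at 12 h (-2.69 ± 0.47, adjusted p = 0.00087). A transcript level does not show whether the enzyme is made. Of the other 11 measured genes on the list of itaconate synthesis, transport and breakdown, none passed the test. With the replicate block MCEE, an epimerase of the methylmalonyl-CoA pathway, passed as well (log2 change 1.03 ± 0.37, adjusted p = 0.0464).

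WT replicate 3 stood apart from all 5 other libraries of the comparison. Its mean Pearson correlation across genes with the other 2 WT libraries was 0.870, against 0.913 for WT replicate 1, 0.899 for WT replicate 2 and 0.935 to 0.947 for the 3 KO libraries. In 7871 genes (37.1%) it lay more than 1 log2 unit from the mean of WT replicates 1 and 2, above it in 3715 and below it in 4156. The first principal component of the 6 libraries, with 47.7% of the variance, separated WT replicate 3 from the rest, KO libraries included. The departure followed transcript length, as a description across 15235 protein-coding genes (Spearman's rho = -0.37). Coding genes were split into 4 bins of equal size by transcript length. In the shortest bin WT replicate 3 lay 0.26 above its group mates at the median, and in the longest bin 0.73 below them. Long noncoding RNAs lay 0.45 above them and pseudogenes 0.42 above them. The KO minus WT difference ran the opposite way with length. Its median was -0.04 in the shortest and 0.23 in the longest bin with all 6 libraries, and 0.04 and -0.01 without WT replicate 3. Among the genes that were far lower in WT replicate 3 than in its group mates was TLR8, an endosomal receptor for single-stranded RNA. TLR8 had values of 8.29, 7.22 and 7.12 in KO and 7.41, 7.81 and 3.14 in WT libraries, so that its log2 change was 1.42 with all libraries and -0.07 without WT replicate 3, and it passed in neither. TLR4 behaved alike, with 5.96, 5.05 and 5.79 in KO and 5.55, 5.81 and 2.80 in WT libraries and log2 changes of 0.88 and -0.08.

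**Figure D1:**
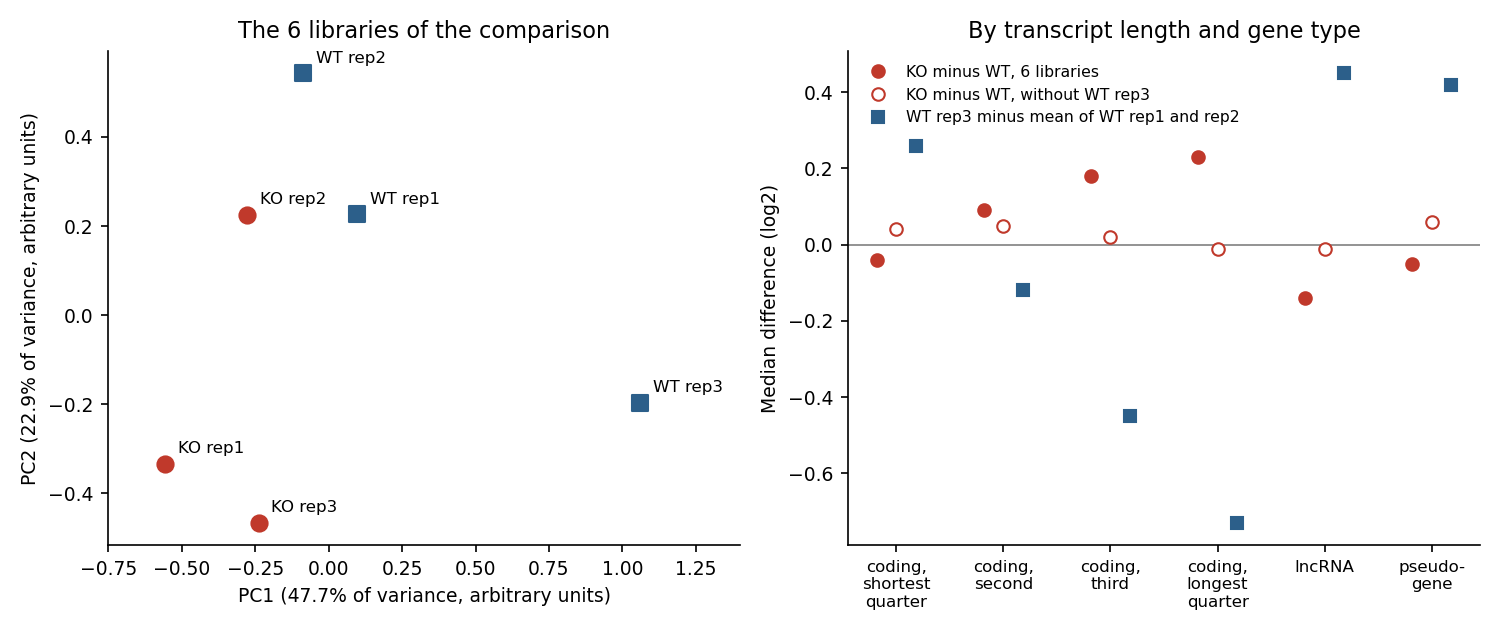
Left, the first 2 principal components of the 6 stimulated 24 h libraries (KO circles, WT squares). Right, median log2 differences in coding genes in 4 bins of transcript length, in long noncoding RNAs and in pseudogenes: KO minus WT with all 6 libraries (filled circles) and without WT replicate 3 (open circles), and WT replicate 3 minus the mean of WT replicates 1 and 2 (squares). WT replicate 3 sits alone at the right end of the first component, and the KO minus WT medians lie between -0.01 and 0.06 once it is left out.

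Over all 21232 genes tested, 724 were higher in KO cells (3.41%) and 523 lower (2.46%) at an adjusted p below 0.05. When WT replicate 3 was left out the counts were 240 higher (1.13%) and 204 lower (0.961%), of which 206 and 185 were called in both. All 518 higher and all 338 lower genes that lost the call kept their direction. Their median log2 change moved to 0.96 without WT replicate 3, against 1.19 with it, in the higher genes, and to -1.52 against -1.83 in the lower. The loss was not particular to that library. Without KO replicate 1 the counts were 188 and 151, without KO replicate 3 they were 280 and 239, and without WT replicate 2 they were 1032 and 828. In all, 135 higher and 118 lower genes kept their call whichever of the 6 libraries was left out. With the replicate number as a block 1392 genes were higher (6.56%) and 1072 lower (5.05%), among them all 724 and all 523. The list counts below are to be read beside these shares of all genes, 3.41% and 2.46%, or 6.56% and 5.05% with the block. A fit of the 6 libraries alone called 0 higher genes and 3 lower ones (CCL7, TNNT1 and INA), with 1495 and 1369 at an unadjusted p below 0.05. Over all genes the 3 KO values lay entirely above the 3 WT values in 2565 genes (12.1%) and entirely below them in 1950 (9.2%).

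**Figure D2:**
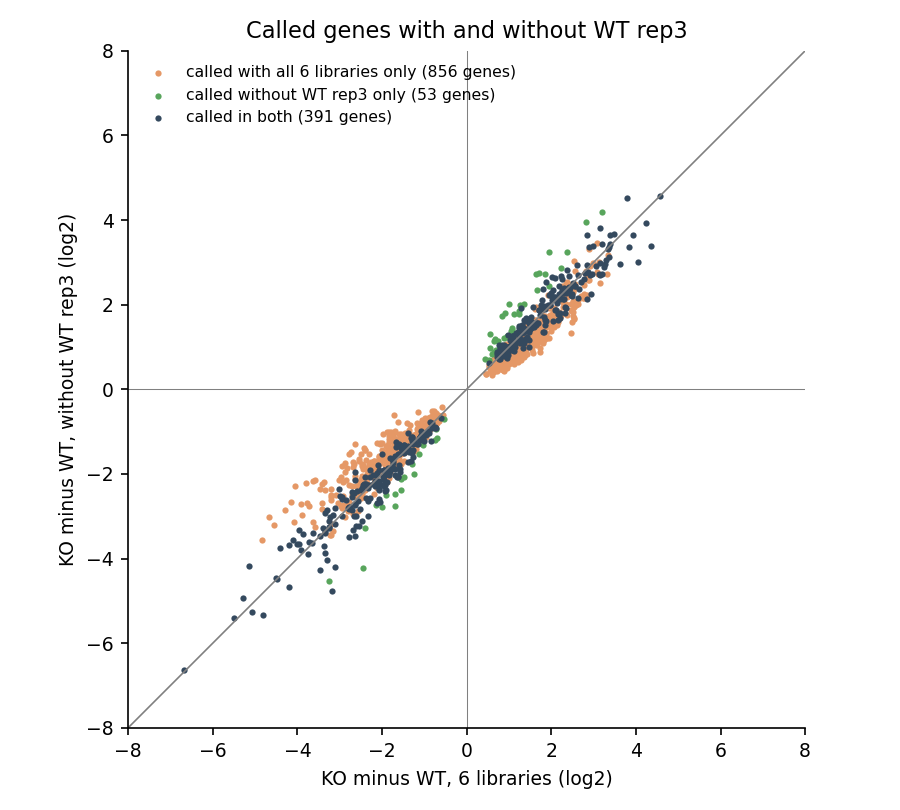
Log2 change, KO minus WT, for each called gene with all 6 libraries (horizontal) and without WT replicate 3 (vertical). Each point is a gene: 391 were called in both, 856 with all 6 libraries only and 53 without WT replicate 3 only, and every point lies on the same side of 0 on both axes.

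The monocyte attractant CCL7 had the largest fall of any gene named here, and the related CCL2 and CCL13 also passed the test, though not with every library left out. CCL7 (MCP-3), CCL2 (MCP-1), CCL8 (MCP-2) and CCL13 (MCP-4) draw monocytes through CCR2 and related receptors, and their genes lie next to each other on chromosome 17. CCL7 had values of 2.87, 3.78 and 3.14 in KO libraries, against 10.20, 9.60 and 10.02 in WT libraries, so the groups lay more than 5 log2 units apart. Its log2 change was -6.67 ± 0.63 (adjusted p = 2.36e-07) and stayed between -6.93 and -6.48 whichever of the 6 libraries was left out. CCL2 had values of 10.29, 10.33 and 11.37 in KO, against 13.51, 12.24 and 13.82 in WT libraries, without overlap (log2 change -2.53 ± 0.65, adjusted p = 0.02). This call ended without KO replicate 1, WT replicate 1 or WT replicate 3 (log2 -2.37 to -2.22, adjusted p 0.058 to 0.112). CCL13 read 3.22, 3.97 and 4.09 in KO and 5.79, 6.47 and 6.22 in WT libraries (-2.40 ± 0.59, adjusted p = 0.0159), and its call ended without KO replicate 1 or WT replicate 3 (log2 -2.37 to -2.13, adjusted p 0.0622 to 0.105). CCL8 read 11.57, 12.50 and 13.29 in KO and 15.65, 14.28 and 14.62 in WT libraries, also without overlap, and missed the threshold (-2.40 ± 0.76, adjusted p = 0.0562, but 0.0242 with the replicate block and 0.00753 with a pseudocount of 5). CCL18, a lymphocyte attractant of macrophages and dendritic cells that also lies on chromosome 17, fell to 3.04, 4.83 and 3.35 in KO, against 6.22, 6.00 and 6.29 in WT libraries (-2.43 ± 0.62, adjusted p = 0.0201), a call that ended without KO replicate 1, KO replicate 3 or WT replicate 3 (log2 -2.37 to -2.08, adjusted p 0.0755 to 0.133). Of all 18 CC and other chemokines on the list, 4 were lower and 0 higher, with a median of -0.45, against 0.06 over all genes tested. The neighbouring CCL1, as well as CCL3, CCL4 and CCL5, did not pass the test (log2 changes of 0.34, -0.87, -0.05 and -0.35).

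The promoters of CCL7, CCL8 and CCL13 are shown as examples from one family of neighbouring genes. Their KO values did not overlap the WT values, although CCL8 did not pass the test. CCL2 meets the same description and passed the test, but its promoter was not examined on its own. The windows shown are thus only a part of the family. They stand beside that of CD163, the scavenger receptor described next. Each window runs from 250 bases before to 50 bases after the RefSeq start (GRCh38.p14), 5′ to 3′ on the gene's strand, and capitals mark matches to the motifs searched: chr17:34269971-34270270 (plus strand) for CCL7, chr17:34319185-34319484 (plus) for CCL8, chr17:34356230-34356529 (plus) for CCL13 and chr12:7503728-7504027 (minus) for CD163.
CCL7: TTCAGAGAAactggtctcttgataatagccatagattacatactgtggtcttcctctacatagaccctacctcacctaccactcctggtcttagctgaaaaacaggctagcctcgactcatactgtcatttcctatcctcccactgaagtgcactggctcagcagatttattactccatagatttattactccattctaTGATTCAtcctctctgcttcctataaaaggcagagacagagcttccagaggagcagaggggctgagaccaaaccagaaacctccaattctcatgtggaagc
CCL8: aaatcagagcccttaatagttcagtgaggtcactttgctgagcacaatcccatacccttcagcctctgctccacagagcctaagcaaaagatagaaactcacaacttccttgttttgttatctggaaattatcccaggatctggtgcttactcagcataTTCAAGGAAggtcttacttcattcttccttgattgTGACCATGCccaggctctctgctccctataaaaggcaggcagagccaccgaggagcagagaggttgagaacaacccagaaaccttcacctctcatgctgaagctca
CCL13: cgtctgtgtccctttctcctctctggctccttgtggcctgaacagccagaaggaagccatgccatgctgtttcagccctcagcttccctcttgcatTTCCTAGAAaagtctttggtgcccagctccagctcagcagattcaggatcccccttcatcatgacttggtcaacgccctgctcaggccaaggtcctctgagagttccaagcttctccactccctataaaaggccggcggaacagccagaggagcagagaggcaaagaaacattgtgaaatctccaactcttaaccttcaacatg
CD163: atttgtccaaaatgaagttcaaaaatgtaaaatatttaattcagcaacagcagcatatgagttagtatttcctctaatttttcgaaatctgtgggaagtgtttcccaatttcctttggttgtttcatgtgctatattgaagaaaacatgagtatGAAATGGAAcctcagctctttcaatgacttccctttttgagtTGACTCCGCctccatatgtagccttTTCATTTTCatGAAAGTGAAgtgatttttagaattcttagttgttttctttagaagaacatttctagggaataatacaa
The motifs, read on both strands and allowed to overlap, were the interferon-gamma element GAS (TTCNNNGAA), the core of the interferon element ISRE (GAAANNGAA), NF-kB (GGGANTTCC), AP-1 (TGANTCA), CRE (TGACGTCA), an amino acid response element (TGATGNAA) and an antioxidant response element (TGACNNNGC). All 3 chemokine windows held 1 GAS match, as did 7.9% of all 27305 promoters in the table, at position -250 in CCL7, -91 in CCL8 and -154 in CCL13, counted from the start site to the first base of the match. CCL7 also held an AP-1 match at -51 (7.8% of all promoters), and CCL8 an antioxidant response match at -56 (13.6%). The CD163 window held 3 ISRE core matches, at -96, -29 and -18 (8.3% of all promoters held at least 1), and an antioxidant response match at -54. None of the 4 windows held an NF-kB (1.9% of all promoters), CRE (2.0%) or amino acid response match (3.7%). Among the 12 largest falls described below, 11 had a promoter in the table, and 1 of them held a GAS match, 1 an ISRE core match, 4 an AP-1 match and 2 an antioxidant response match. Among the 12 largest rises 8 had one, and 1 held a GAS match, 1 an ISRE core match, 1 an AP-1 match and 1 an antioxidant response match. A match is a run of letters and not evidence that a factor bound there.

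The largest differences were taken among genes that passed the test with and without WT replicate 3, whose KO and WT values did not overlap and whose higher group mean was at or above the median of all values, leaving out uncharacterized loci, antisense genes and pseudogenes. The absence of overlap is therefore set by the choice of genes. The requirement on level left out LINC01531 (log2 change -5.14), ERVFRD-1 (-3.92) and KCNMA1 (3.16), for example, which differed by more than some of the genes described. Under this rule the 12 largest falls joined genes of macrophage function with genes known from other tissues. CD163, the scavenger receptor for haemoglobin bound to haptoglobin, fell to 2.32, 3.59 and 2.21 in KO, against 8.68, 7.42 and 6.50 in WT libraries (log2 change -4.82 ± 0.71, adjusted p = 0.000132). PTGES, which makes prostaglandin E2, had values of 2.31, 5.23 and 2.51 in KO and 7.97, 8.07 and 6.60 in WT libraries (-4.20 ± 0.73, adjusted p = 0.000821), with KO replicate 2 the nearest to the WT libraries. LAG3, an inhibitory receptor that binds class II molecules, read 4.90, 5.83 and 5.43 in KO and 8.93, 8.61 and 9.48 in WT libraries (-3.62 ± 0.61, adjusted p = 0.000567). In all of these genes the KO mean was below 6 and the WT mean above 7. SLC16A10, a carrier of aromatic amino acids, had values of 3.33, 5.34 and 3.13 in KO and 7.83, 7.29 and 7.65 in WT libraries (-3.66 ± 0.77, adjusted p = 0.00512). CHST15, a sulfotransferase that builds chondroitin sulfate E, read 3.21, 4.43 and 3.48 in KO and 7.33, 7.49 and 6.44 in WT libraries (-3.38 ± 0.54, adjusted p = 0.000298).

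Among the same falls were genes best known from muscle and nerve. TNNT1, the troponin T of slow skeletal muscle, read 1.53, 1.71 and 1.73 in KO, against 6.55, 6.65 and 7.60 in WT libraries (-5.28 ± 0.43, adjusted p = 1.33e-08), the smallest adjusted p of the 24 genes. INA, a neuronal intermediate filament protein, had values of 2.56, 2.85 and 2.31 in KO and 7.79, 7.87 and 7.25 in WT libraries (-5.06 ± 0.84, adjusted p = 0.000469). PERM1, a regulator of mitochondrial genes in muscle, read 4.05, 5.32 and 4.16 in KO and 8.71, 7.80 and 10.29 in WT libraries (-4.42 ± 0.66, adjusted p = 0.000144), and WT replicate 3 held the highest value. The homeobox gene NKX2-2 (-4.10), the phosphatase regulator PPP1R27 (-3.96) and the long noncoding RNA LINC01615 (-5.50) completed the 12. PPP1R27 varied most among the WT libraries, with 10.32, 6.21 and 9.18, against 4.93, 3.44 and 5.47 in KO libraries.

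The 12 largest rises under the same rule held ligands and receptors at the cell surface. TNFSF12 (TWEAK), a TNF family ligand, had values of 6.10, 5.84 and 6.64 in KO libraries, against 2.41, 2.61 and 3.08 in WT libraries (log2 change 3.49 ± 0.46, adjusted p = 4.14e-05), with little spread in either group. HGF, the ligand of the receptor MET, read 7.39, 6.32 and 6.56 in KO and 3.99, 5.01 and 2.49 in WT libraries (2.93 ± 0.57, adjusted p = 0.0027). WT replicate 3 held the lowest of these HGF values and so lay farthest from the KO libraries. GPR27, an orphan G protein-coupled receptor, read 7.92, 7.26 and 7.70 in KO and 4.12, 5.13 and 1.47 in WT libraries (4.05 ± 0.62, adjusted p = 0.000194). GPRC5B, another orphan receptor, had values of 6.14, 5.97 and 5.64 in KO and 1.62, 4.28 and 0.99 in WT libraries (3.62 ± 0.64, adjusted p = 0.000898). NTRK3, the receptor for neurotrophin-3, read 5.59, 5.78 and 5.81 in KO and 3.01, 2.66 and 1.79 in WT libraries (3.24 ± 0.50, adjusted p = 0.000205). All 3 KO libraries lay above 5.5 and all WT libraries below 3.1. CDON, a hedgehog coreceptor (3.15), and ENTPD2, an enzyme that breaks down extracellular ATP (2.92), rose as well.

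The other 5 rises were of mixed kind. COL10A1, the collagen of hypertrophic cartilage, had values of 6.96, 5.14 and 4.58 in KO, against 0.85, 1.12 and 0.96 in WT libraries (4.58 ± 0.90, adjusted p = 0.00276), so that all WT libraries were close to the bottom of the scale. With a pseudocount of 5 its change was 2.93 and still called. MYH11, the myosin heavy chain of smooth muscle, read 7.90, 7.72 and 7.88 in KO and 4.32, 5.23 and 4.10 in WT libraries (3.28 ± 0.46, adjusted p = 7.45e-05). SPIB, an ETS factor of B cells and plasmacytoid dendritic cells, read 6.90, 6.83 and 7.67 in KO and 3.68, 2.99 and 5.27 in WT libraries (3.16 ± 0.69, adjusted p = 0.00672). HMSD, a gene with a serpin domain (4.35), and ZP2, an egg-coat glycoprotein (3.19), completed the 12. In 7 of the 12 rises and 4 of the 12 falls WT replicate 3 was the WT library farthest from the KO libraries. These genes were chosen to stay called without it. Among all 724 higher genes it lay farther from KO than the mean of its group mates in 571 (78.9%). Among all 523 lower genes this held for 360 (68.8%). Both sets were called with WT replicate 3 in the WT mean, which favours genes where it lies farther from KO. The same share over all genes is not given here. All 24 kept their call and direction with each of the 6 libraries left out in turn. The rule of choice fixed this for WT replicate 3 and favoured it for the others. A fit of the 6 libraries alone called 0 of the 12 rises and 3 of the 12 falls, all in the same direction.

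**Figure D3:**
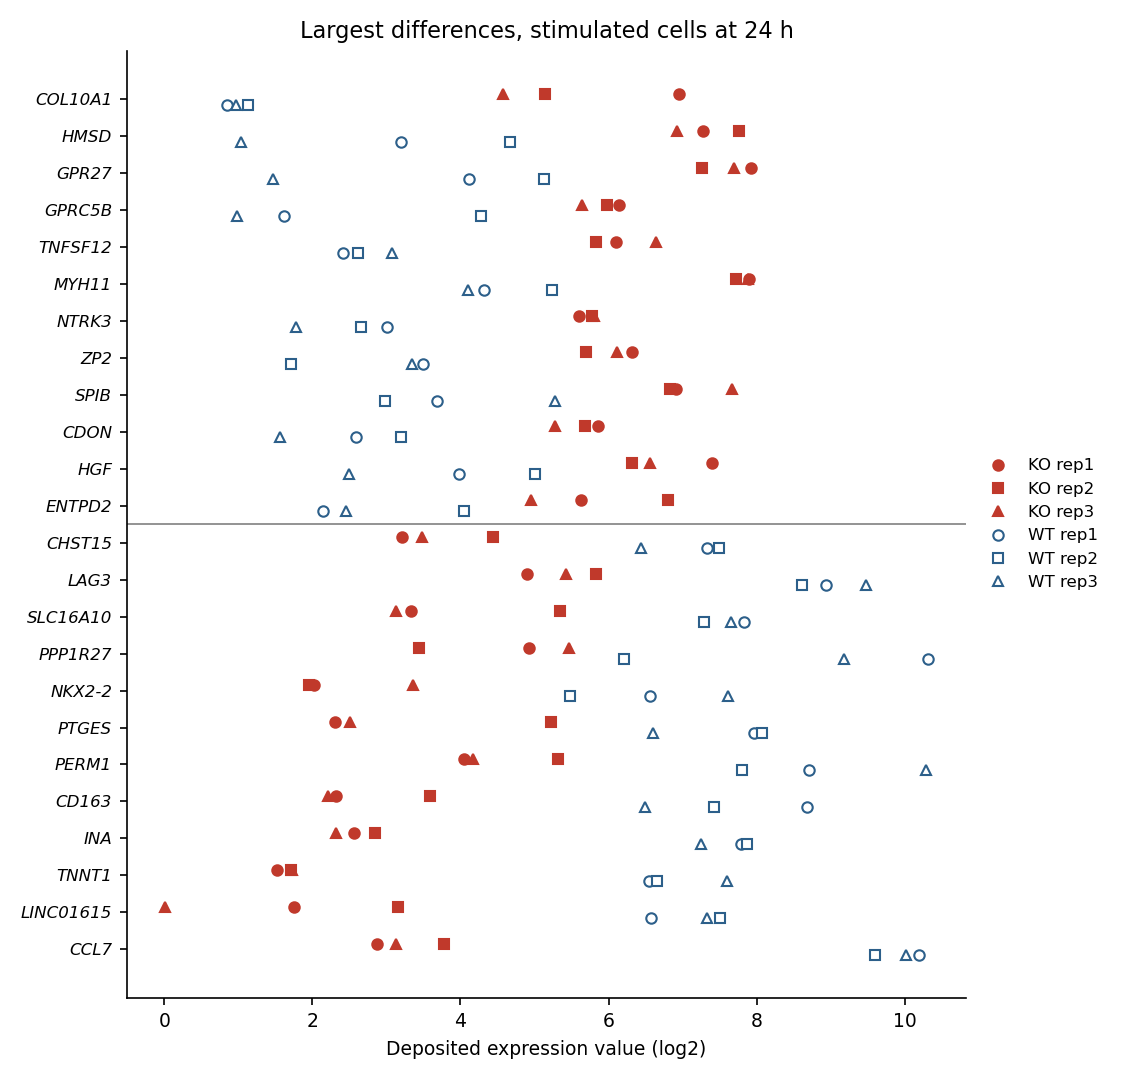
Deposited log2 values in each library for the 12 largest rises (above the line) and the 12 largest falls (below it), with KO libraries as filled and WT libraries as open symbols. The genes were chosen to have no overlap between KO and WT values. WT replicate 3 (open triangles) is the WT library farthest from KO in 7 rises and 4 falls.

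Class II antigen presentation was the list with the highest median change among those described here. This machinery loads peptides from endosomes onto HLA-DR, -DP and -DQ molecules, with CD74 as the invariant chain, HLA-DM and HLA-DO as editors and CIITA as the master regulator. Of 15 genes 4 were higher and 0 lower in KO cells, with a median log2 change of 1.27, and 1.37 without WT replicate 3. CD74 had values of 12.56, 11.40 and 12.51 in KO and 10.75, 10.86 and 11.19 in WT libraries (log2 change 1.22 ± 0.36, adjusted p = 0.0436). HLA-DPA1 read 7.61, 6.80 and 7.36 in KO and 4.61, 6.28 and 5.61 in WT libraries (1.75 ± 0.54, adjusted p = 0.0496). HLA-DPB1 read 7.68, 6.86 and 7.54 in KO and 4.66, 6.14 and 5.57 in WT libraries (1.91 ± 0.54, adjusted p = 0.0339). In these genes KO replicate 2 was the lowest KO library and still lay above every WT library. HLA-DOA read 4.89, 2.86 and 3.83 in KO and 0.51, 2.41 and 1.32 in WT libraries (2.45 ± 0.55, adjusted p = 0.00806), and it alone was called without WT replicate 3 (adjusted p = 0.0385). The CD74 call ended without KO replicate 1, KO replicate 3, WT replicate 1, WT replicate 2 or WT replicate 3 (adjusted p 0.07 to 0.226), that of HLA-DPB1 without KO replicate 1, KO replicate 3, WT replicate 1 or WT replicate 3 (log2 1.51 to 1.96, adjusted p 0.0934 to 0.159), that of HLA-DPA1 without KO replicate 1, KO replicate 3, WT replicate 1 or WT replicate 3 (log2 1.31 to 1.81, adjusted p 0.129 to 0.211) and that of HLA-DOA without KO replicate 1 or WT replicate 1 (log2 1.93 to 1.99, adjusted p 0.0507 to 0.0978). HLA-DOA had a change of 1.34 with a pseudocount of 5 and was still called, CD74 missed the threshold without the mean-variance trend (adjusted p = 0.0552), and HLA-DPA1 missed it without the low-value filter (0.0502). With the replicate block 7 of the 15 were higher, CIITA (1.69 ± 0.53, adjusted p = 0.036), HLA-DRA (1.70 ± 0.60, 0.0444) and HLA-DQA1 (1.64 ± 0.56, 0.0415) in addition, and these 3 also passed with a pseudocount of 5. In vehicle-treated cells 0 of the 15 passed and the median was -0.82. The difference between the treatments was not called for any of the 15. HLA genes are highly similar to each other and differ between people from the reference, so counts can be split between them, and the value of a single HLA gene is uncertain. In class I presentation and the immunoproteasome 0 of 19 genes passed, with a median of -0.07.

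Several receptors of macrophage identity and scavenging were lower in KO cells. Of 34 genes on this list 7 were lower and 0 higher (median -0.55), where 2.46% of all genes were lower. The count was 3 lower without WT replicate 3, and with the replicate block 9 lower and 2 higher. Beside CD163, LYZ, the lysozyme of myeloid cells, fell to 7.92, 6.38 and 7.14 in KO, against 10.47, 10.83 and 8.48 in WT libraries (log2 change -2.78 ± 0.53, adjusted p = 0.00194). MSR1, the class A scavenger receptor, read 6.76, 4.88 and 5.76 in KO and 9.20, 7.72 and 6.64 in WT libraries (-2.05 ± 0.50, adjusted p = 0.0148), and KO replicate 1 lay just above WT replicate 3. TREM1, which amplifies inflammatory signalling, read 1.52, 2.48 and 1.53 in KO and 4.70, 5.89 and 4.59 in WT libraries (-3.22 ± 0.84, adjusted p = 0.0229). The groups did not overlap in LYZ or TREM1. VSIG4, a complement receptor of tissue macrophages, read 1.13, 0.68 and 1.49 in KO and 4.87, 2.70 and 4.84 in WT libraries (-3.04 ± 0.77, adjusted p = 0.0182). TREM2, a lipid receptor (-1.86), and TIMD4, a receptor for phosphatidylserine (-2.25), were the others. The MSR1 call ended without KO replicate 2, KO replicate 3 or WT replicate 1 (adjusted p 0.0538 to 0.1), that of TREM2 without KO replicate 1, KO replicate 2, KO replicate 3, WT replicate 1 or WT replicate 3 (adjusted p 0.0571 to 0.243) and that of TIMD4 without KO replicate 1, KO replicate 2, KO replicate 3, WT replicate 1 or WT replicate 3 (adjusted p 0.0686 to 0.244). The TREM1 call ended without KO replicate 1, KO replicate 3, WT replicate 2 or WT replicate 3 (log2 -3.45 to -2.80, adjusted p 0.0542 to 0.106), and that of VSIG4 without KO replicate 1, WT replicate 1 or WT replicate 3 (log2 -3.06 to -2.68, adjusted p 0.0677 to 0.103). With a pseudocount of 5 VSIG4 had a change of -1.72 and TREM2 one of -1.58, and neither was called (adjusted p = 0.0675 and 0.051), while TIMD4 had -1.40 and was called. CD68, a lysosomal marker of macrophages, read 11.82, 11.69 and 12.01 in KO and 13.53, 12.36 and 12.63 in WT libraries and missed the threshold (adjusted p = 0.063, and 0.0346 with the replicate block), and SPI1, ITGAM and CSF1R did not pass (log2 changes of 0.12, 0.01 and -0.54).

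The lysosomal cysteine proteases CTSL and CTSB were lower in KO cells whichever of the 6 libraries was left out. CTSL had values of 9.69, 10.45 and 9.94 in KO, against 12.60, 11.91 and 12.21 in WT libraries (log2 change -2.21 ± 0.34, adjusted p = 0.000166). CTSB read 9.07, 8.59 and 9.38 in KO and 11.76, 10.56 and 10.55 in WT libraries (-1.94 ± 0.33, adjusted p = 0.000638). TFEB, a transcription factor that drives lysosomal genes, was higher (7.80, 8.34 and 7.62 in KO, 5.63, 6.72 and 6.18 in WT, 1.74 ± 0.34, adjusted p = 0.0027). Of 28 genes on the lysosomal list these 3 passed, and the median was -0.37. In the block fit the lysosomal enzymes GLA and NEU1 and the cathepsin inhibitor CSTB were lower too (log2 changes of -0.77, -0.94 and -1.13). Among matrix proteases and matrix genes 2 of 28 were lower, and 4 with the replicate block. PLAU, the urokinase plasminogen activator, read 6.14, 6.39 and 6.39 in KO and 8.61, 7.99 and 8.71 in WT libraries (-2.13 ± 0.44, adjusted p = 0.00425). MMP9, the gelatinase, read 10.61, 12.12 and 11.44 in KO and 15.33, 14.13 and 14.20 in WT libraries (-3.17 ± 0.85, adjusted p = 0.0255), a call that ended without KO replicate 1, KO replicate 3, WT replicate 1 or WT replicate 3 (log2 -3.34 to -2.78, adjusted p 0.066 to 0.147).

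Glycolysis and hypoxia genes moved in both directions, with 4 of 31 higher, 4 lower and a median of -0.02. The counts were 1 higher and 4 lower without WT replicate 3, and with the replicate block 7 and 4. PFKL, a phosphofructokinase, was higher (9.68, 8.54 and 9.08 in KO, 7.81, 8.05 and 7.59 in WT, log2 change 1.29 ± 0.24, adjusted p = 0.00163). The glucose transporter SLC2A1 (1.87 ± 0.50, adjusted p = 0.0248), lactate dehydrogenase LDHA (1.10 ± 0.30, adjusted p = 0.0293) and enolase ENO1 (1.04 ± 0.31, adjusted p = 0.0422) were higher too. The neuronal enolase ENO2 was lower (3.64, 3.91 and 3.12 in KO, 5.97, 5.30 and 6.59 in WT, -2.40 ± 0.40, adjusted p = 0.000469), as were adrenomedullin ADM (-1.81 ± 0.44, adjusted p = 0.0148), carbonic anhydrase CA12 (-2.33 ± 0.62, adjusted p = 0.0259) and hexokinase HK3 (-1.94 ± 0.44, adjusted p = 0.00767). The LDHA call ended without KO replicate 1, KO replicate 3 or WT replicate 3 (adjusted p 0.107 to 0.213), that of ENO1 without KO replicate 1, KO replicate 3 or WT replicate 3 (adjusted p 0.117 to 0.266) and that of ADM without KO replicate 1, KO replicate 3 or WT replicate 1 (adjusted p 0.0646 to 0.0805). The CA12 call ended without KO replicate 1, KO replicate 3, WT replicate 1 or WT replicate 2 (log2 -2.11 to -1.88, adjusted p 0.0586 to 0.167), that of HK3 without KO replicate 1 or WT replicate 1 (log2 -1.75 to -1.44, adjusted p 0.0586 to 0.0639) and that of SLC2A1 without KO replicate 1, KO replicate 2, WT replicate 1 or WT replicate 3 (log2 1.22 to 1.83, adjusted p 0.0579 to 0.222). ENO1 also missed the threshold without the mean-variance trend (adjusted p = 0.0546), and with a pseudocount of 5 the changes of HK3 and CA12 were -1.15 and -1.41, both still called. Genes of the citric acid cycle and mitochondrial carriers (0 of 29, median 0.30) and of the respiratory chain and ATP synthase (0 of 30, median 0.09) did not pass. With the replicate block 2 of each were higher, MDH2 and PDHA1 in the first list and CYC1 and ATP5PB in the second, with log2 changes of 0.67, 0.50, 0.72 and 0.49. In that fit 6.56% of all genes were higher, so both counts are near the share over all genes.

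No member of the list of proinflammatory cytokines passed the test in stimulated cells at 24 h. The TNF family ligand TNFSF12, which was higher in KO cells, is not on that list. Of 27 on the list 0 were higher and 0 lower (median -0.13), and with the replicate block OSM, an IL-6 family cytokine, was lower (-2.54 ± 0.82, adjusted p = 0.0321), as it was with a pseudocount of 5 (-1.77, adjusted p = 0.0396). IL1B had values of 9.61, 13.92 and 9.76 in KO, against 11.15, 14.59 and 10.21 in WT libraries (log2 change -0.89 ± 1.24, adjusted p = 0.737). IL6 read 6.91, 9.15 and 7.26 in KO and 5.94, 9.00 and 5.15 in WT libraries (1.07 ± 0.63, adjusted p = 0.336). IL12B, a subunit of IL-12, read 2.36, 5.96 and 1.16 in KO and 2.01, 6.17 and 0.73 in WT libraries (0.19 ± 1.15, adjusted p = 0.955). In all of these replicate 2 was the highest library in both genotypes, and the range within each genotype was wider than the difference between the means. IL6 passed without WT replicate 2 (log2 change 2.23, adjusted p = 0.00987). That fit kept KO replicate 2, the highest KO library, so its 2 groups are no longer alike in replicate numbers. TNF (-0.05 ± 0.44, adjusted p = 0.973), IL10 (-0.07 ± 0.69, adjusted p = 0.976), IFNB1 (-2.62 ± 1.04, adjusted p = 0.135) and the interferon-induced chemokine CXCL10 (0.47 ± 0.73, adjusted p = 0.766) did not pass. HMOX1, which breaks down haem and is induced by NRF2, read 10.20, 9.26 and 10.37 in KO and 10.95, 9.93 and 12.08 in WT libraries (-1.05 ± 0.44, adjusted p = 0.163), and passed without WT replicate 2 (-1.57, adjusted p = 0.0279). Replicate 2 was the lowest HMOX1 library in both genotypes, and KO replicate 2 stayed in that fit. Among 14 CXC chemokines 2 were lower, the neutrophil attractant CXCL3 (-1.62 ± 0.48, adjusted p = 0.0413) and CXCL16 (-1.62 ± 0.46, adjusted p = 0.0362), and with the replicate block CXCL12 made the count 3. The CXCL3 call ended without KO replicate 1, KO replicate 3, WT replicate 1, WT replicate 2 or WT replicate 3 (log2 -1.85 to -1.30, adjusted p 0.0671 to 0.235), and that of CXCL16 without KO replicate 1, KO replicate 3, WT replicate 1 or WT replicate 2 (log2 -1.69 to -1.11, adjusted p 0.0603 to 0.175).

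Signalling and interferon genes gave few calls. IL2RG, the common gamma chain shared by the receptors of several interleukins, was higher with the smallest adjusted p of the list members that rose. It had values of 8.33, 8.21 and 7.61 in KO, against 4.94, 5.66 and 5.17 in WT libraries (log2 change 2.79 ± 0.30, adjusted p = 1.6e-06). IL1R2, the decoy receptor of IL-1, was lower (-3.29 ± 0.85, adjusted p = 0.0204), a call that ended without KO replicate 1, KO replicate 3, WT replicate 1 or WT replicate 2 (log2 -3.18 to -2.68, adjusted p 0.0539 to 0.0924). With a pseudocount of 5 the IL1R2 change was -1.66 and still called. Of 30 NF-kB genes 3 were higher and 0 lower (median 0.39, and 0.16 without WT replicate 3), where 3.41% of all genes were higher. They were BIRC3 (1.32 ± 0.35, limma adjusted p = 0.0245), NFKB1 (1.31 ± 0.36, adjusted p = 0.0315) and TRAF1 (1.17 ± 0.33, adjusted p = 0.0319). Of these BIRC3, an inhibitor of apoptosis, was called without WT replicate 3 (adjusted p = 0.0354), and its call ended without KO replicate 1, KO replicate 3, WT replicate 1 or WT replicate 2 (log2 1.08 to 1.30, adjusted p 0.0594 to 0.132). The NFKB1 call ended without KO replicate 1, KO replicate 2 or WT replicate 3 (adjusted p 0.0632 to 0.267), and that of TRAF1 without KO replicate 1, KO replicate 3, WT replicate 1 or WT replicate 3 (adjusted p 0.0615 to 0.21). Of 44 interferon-stimulated antiviral genes 1 passed, the nucleic acid sensor ZBP1, which was lower (4.17, 4.15 and 4.46 in KO, 7.32, 5.49 and 7.12 in WT, -2.39 ± 0.55, adjusted p = 0.0102), a call that ended without KO replicate 1, WT replicate 1 or WT replicate 3 (log2 -2.34 to -2.05, adjusted p 0.0521 to 0.0672). GBP7, a guanylate-binding protein, was lower (5.24, 4.40 and 5.77 in KO, 8.55, 6.63 and 8.18 in WT, -2.65 ± 0.48, adjusted p = 0.00128), while IRF8, a transcription factor of myeloid cells, was higher (1.20 ± 0.36, adjusted p = 0.0478), a call that ended without KO replicate 1, KO replicate 2, KO replicate 3, WT replicate 1 or WT replicate 3 (adjusted p 0.0743 to 0.295) and in the fit without the mean-variance trend (adjusted p = 0.0597). Among 17 replication-dependent histones 2 were lower (median -0.93). H2BC4 read 7.44, 8.50 and 8.27 in KO and 10.37, 10.29 and 10.49 in WT libraries (-2.31 ± 0.46, adjusted p = 0.00278), and histone genes are close copies of each other, so single values are uncertain. The count was 4 lower with the replicate block. No gene of the lists of cell cycle (32 genes), proteasome (31), sterol and fatty acid synthesis (30) or integrated stress response (33) passed. In the block fit 4 genes of sterol synthesis were higher, as were 1 stress response gene and 2 proteasome genes, and 1 proteasome gene was lower. That fit called 6.56% of all genes higher and 5.05% lower.

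**Figure D4:**
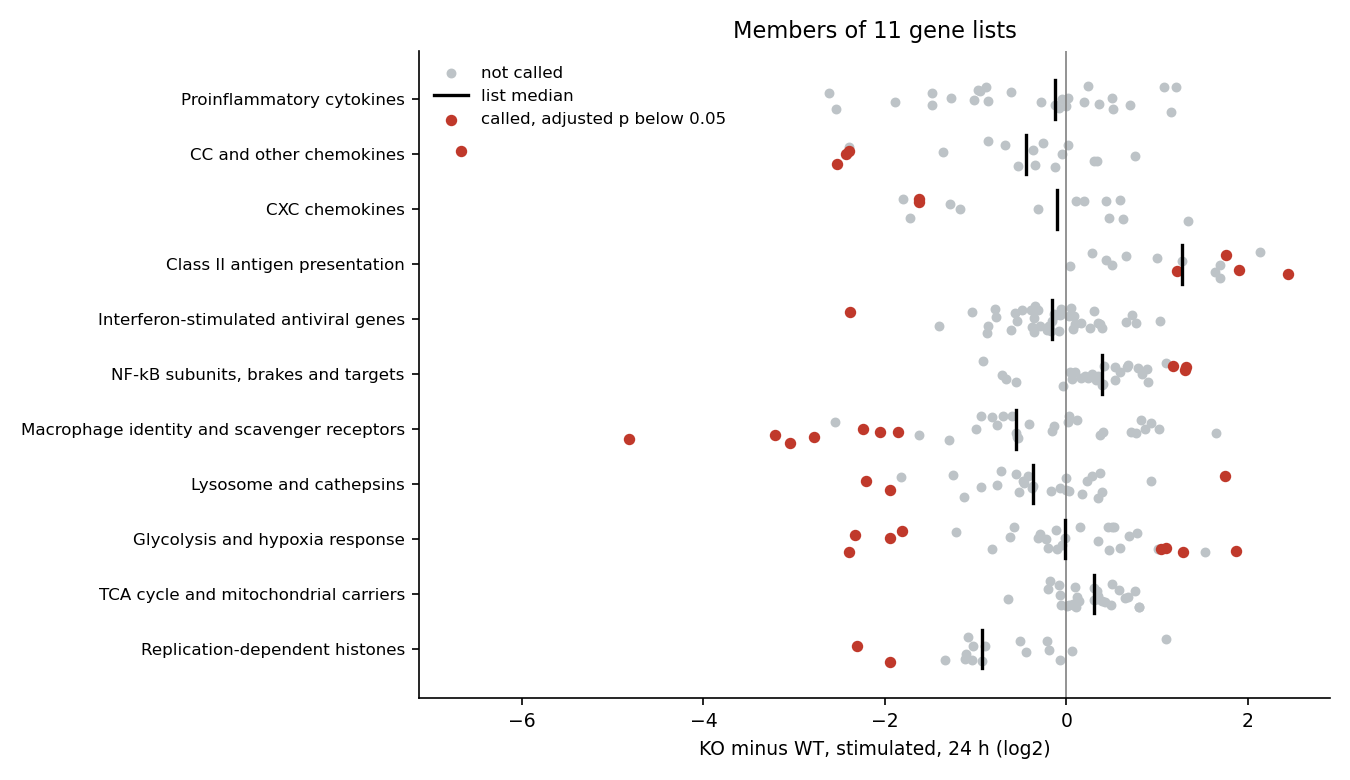
Log2 change, KO minus WT in stimulated cells at 24 h, for each member of 11 gene lists. Red points passed the test, grey points did not, and black bars are list medians, which run from -0.93 for histones to 1.27 for class II antigen presentation.

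The difference between genotypes in stimulated cells was then set beside that in vehicle-treated cells of the same time. In vehicle-treated cells 473 genes were higher in KO (2.23%) and 372 lower (1.75%), 845 in all, and 291 in all without KO vehicle replicate 1, the library whose removal cost the most. Of the 724 genes higher in stimulated KO cells 80 were also higher there (11.0% of the 724, 16.9% of the 473), and of the 523 lower genes 82 were also lower (15.7% of the 523, 22.0% of the 372). The change of the genotype difference with stimulation was called as positive in 37 genes (0.174%) and as negative in 55 (0.259%), 92 in all. Without WT replicate 3 the total was 36, and over the 12 libraries left out in turn it ran between 18, without KO vehicle replicate 1, and 202, without KO stimulated replicate 2. CCL7 had vehicle values of -0.34, -0.24 and 0.02 in KO, against 1.91, 2.72 and 1.34 in WT libraries (log2 change -2.17 ± 0.63, adjusted p = 0.0464), and its difference in stimulated cells minus that with vehicle was -4.50 ± 0.89 (adjusted p = 0.017). That call stood close to the threshold, with an adjusted p of 0.0654 without stimulated KO replicate 1, 0.0552 without stimulated KO replicate 3 and 0.0485 without WT replicate 3, and it ended also without replicates 1 or 3 of either vehicle group. With vehicle the KO values of CCL7 lay at the bottom of the scale, where the lowest value of all was -0.34. The size of its interaction therefore depends on how the deposited scale treats low values. MYH11 did not pass the test with vehicle (-0.19 ± 0.46, adjusted p = 0.929), and its difference was more positive by 3.47 ± 0.66 with stimulation (adjusted p = 0.0113, and 0.0519 without KO vehicle replicate 1). PERM1 did not pass with vehicle either (-0.46 ± 0.66, adjusted p = 0.861), with an interaction of -3.96 ± 0.93 (adjusted p = 0.0495, and 0.142 without WT replicate 3).

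Other genes differed between the genotypes without stimulation as well. TNNT1 had vehicle values of 0.89, 1.78 and 0.95 in KO, against 6.63, 5.84 and 7.15 in WT libraries (log2 change -5.33 ± 0.43, interaction 0.06 ± 0.61, adjusted p of the interaction = 0.988). CD163 read 3.29, 4.73 and 4.35 in KO and 10.14, 9.15 and 8.99 in WT libraries with vehicle (-5.31 ± 0.71, interaction 0.48 ± 1.01, adjusted p = 0.914). Among the 24 largest differences 3 rises (COL10A1, GPR27 and TNFSF12) and 7 falls (CCL7, TNNT1, INA, CD163, NKX2-2, LAG3 and CHST15) were also called with vehicle in the same direction. The interaction was called for 1 of the 12 rises and 2 of the 12 falls chosen by the rule above, which leaves out genes of low level with a called interaction such as LINC01531, ERVFRD-1 and KCNMA1. A missed threshold does not show that the 2 differences are equal.

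At earlier times of stimulation 1031 genes were higher in KO (4.86%) and 819 lower (3.86%) at 6 h, and 377 (1.78%) and 356 (1.68%) at 12 h. Of the genes called at 24 h, 214 of the 724 higher ones were higher at 12 h (29.6%, or 56.8% of the 377), and 205 of the 523 lower ones were lower (39.2%, or 57.6% of the 356). At 6 h the shared genes numbered 173 higher (23.9% of the 724, 16.8% of the 1031) and 155 lower (29.6% of the 523, 18.9% of the 819). All 12 largest falls and 9 of the 12 largest rises were called at 12 h in the same direction, and 9 and 8 at 6 h. The genotype difference itself became more positive between 6 h and 24 h in 58 genes (0.273%) and more negative in 87 (0.41%), 145 in all. Without WT replicate 3 the total was 74, and over the 12 libraries left out in turn it ran between 47, without KO 24 h replicate 3, and 304, without KO 24 h replicate 2. KO replicate 2 of the 6 h group agreed even less with its group (mean correlation 0.839) than WT replicate 3 of the 24 h group did. Without it 821 genes were higher and 667 lower at 6 h, and the difference became more positive with time in 41 and more negative in 57. PERM1 had a log2 change of -0.21 ± 0.66 at 6 h (adjusted p = 0.888), -3.01 at 12 h and -4.42 at 24 h (change from 6 h to 24 h -4.20, adjusted p = 0.0275, 0.097 without WT replicate 3 and 0.0735 without KO 6 h replicate 2). TBXAS1, the thromboxane synthase, had a log2 change of -1.25 ± 0.46 at 6 h, against 2.13 ± 0.46 at 24 h (change 3.38 ± 0.65, adjusted p = 0.0094), with 6.20, 5.71 and 6.36 in KO and 3.51, 5.07 and 3.30 in WT libraries at 24 h. Its 24 h call ended without WT replicate 3 (log2 1.80, adjusted p 0.0571).

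**Figure D5:**
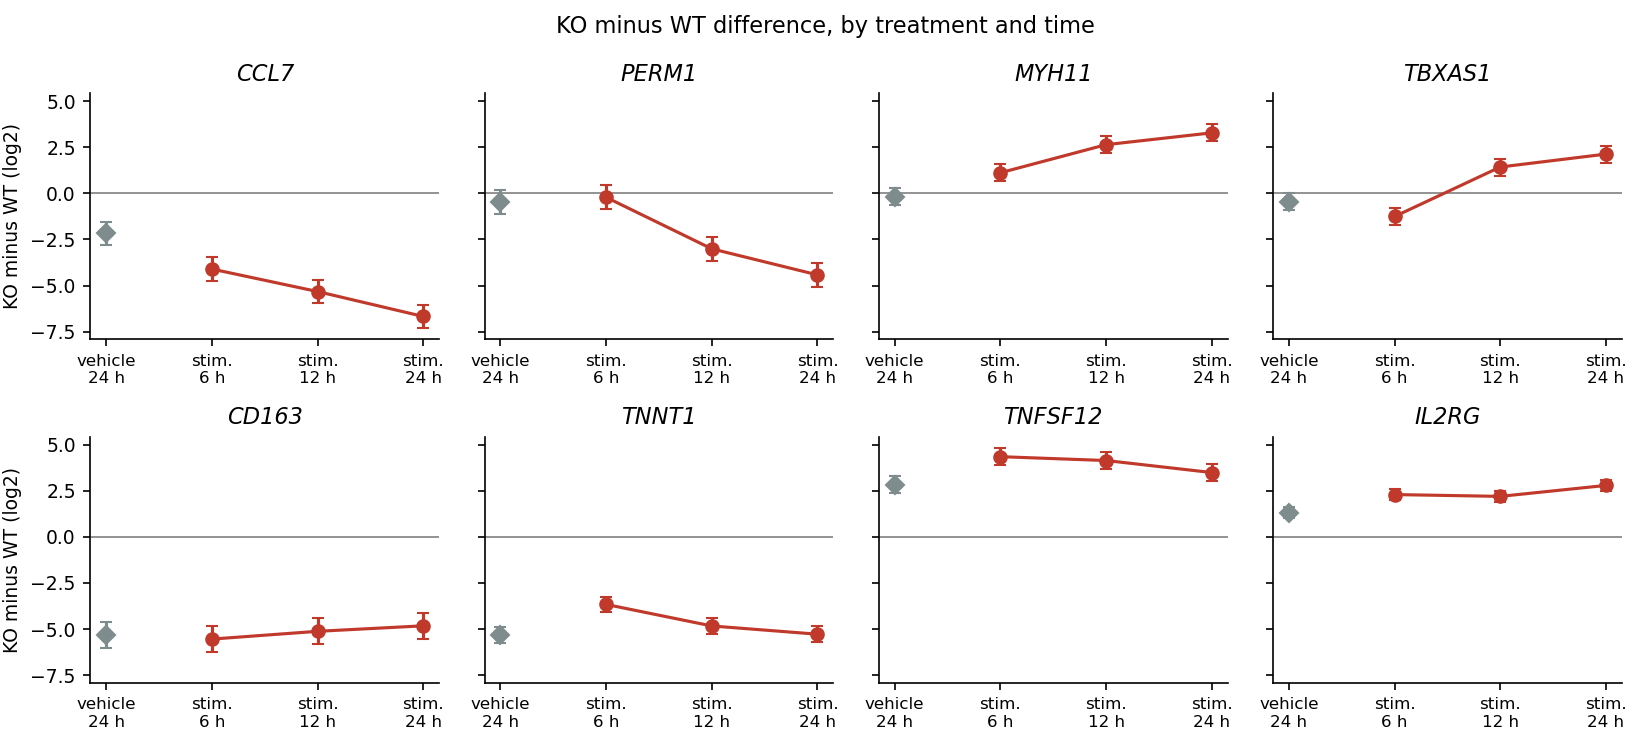
KO minus WT log2 difference (points, with standard errors) of 8 genes with vehicle at 24 h (grey) and after 6, 12 and 24 h of stimulation (red). The top row shows genes whose difference changed with stimulation or time by a called test (CCL7, PERM1, MYH11 and TBXAS1), and the bottom row CD163, TNNT1, TNFSF12 and IL2RG, for which neither test was called.

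Leaving out WT replicate 3 added calls as well as ending them. ADM5, a gene of the adrenomedullin family, read 5.60, 6.50 and 5.73 in KO and 3.76, 4.16 and 6.12 in WT libraries, with WT replicate 3 inside the range of the KO libraries. Its log2 change was 1.26 ± 0.47 with all libraries (adjusted p = 0.108) and 1.98 ± 0.43 without that one (adjusted p = 0.0117). KCNN2, a calcium-activated potassium channel, was alike, with 7.35, 7.18 and 7.70 in KO and 5.56, 5.56 and 7.43 in WT libraries, and changes of 1.23 ± 0.50 and 1.85 ± 0.50 (adjusted p = 0.148 and 0.0486, and 0.0192 with all libraries and the replicate block). TSSK2, SMIM10 and EHD2 also passed without it (log2 1.77, 1.77 and -1.52) and not with all libraries. They passed too with all libraries and the replicate block (adjusted p = 0.0334, 0.0233 and 0.0434), and EHD2 without KO replicate 2 (0.0289). In the other direction F2RL2, a receptor of the thrombin receptor family, read 1.75, 3.11 and 3.25 in KO and 5.18, 5.92 and 9.88 in WT libraries, so that WT replicate 3 was far above its group mates. Its change was -4.29 ± 1.16 with all libraries (adjusted p = 0.0275) and -2.84 ± 1.17 without it (adjusted p = 0.232). ENO4, an enolase of sperm, and COX6B2, a testis subunit of cytochrome c oxidase, were the same in kind, with changes of -3.77 and -3.64 against -2.70 and -3.14 without WT replicate 3. DNASE1L3, a secreted nuclease, and OTOF, a calcium sensor of hair cells, lost the call with changes of 3.18 and -3.44, against 3.35 and -3.22 with all libraries. These losses were not particular to WT replicate 3. The calls of F2RL2, ENO4, COX6B2, DNASE1L3 and OTOF ended without KO replicate 1 as well. Those of F2RL2, DNASE1L3 and OTOF ended also without KO replicate 3, those of DNASE1L3 and OTOF without WT replicate 1, and that of OTOF without WT replicate 2. ENO4 and OTOF were not called without the mean-variance trend either (adjusted p = 0.0569 and 0.0539).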

How the data were processed

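RNA of THP-1 cells was extracted with a Qiagen RNeasy kit and depleted of ribosomal RNA, per the labels' protocols. The authors deposited 1 table of log2 values for 36 libraries and 21599 genes by Entrez identifier; every column was mapped to a library by its label. The submitters' processing notes name cutadapt 1.9.1, GSNAP and GRCh37.p5. Normalization, any offset before the logarithm, strand use and depth are not given in the sources used here, so differences are given on the log2 scale and low values may understate or overstate them. Library medians lay between 5.4691 and 5.4753. RefSeq names (GRCh38.p14) matched 20609 identifiers and not the other 990.

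Genes at or above log2(10) in at least 3 libraries were kept (21232, with 367 removed). Means of 12 groups were fitted to all 36 libraries with limma 3.58.1 (R 4.3.3; trended empirical Bayes, residual degrees of freedom 24), with Benjamini-Hochberg adjustment over all kept genes and calls at an adjusted p below 0.05. Errors of changes are standard errors of this fit. Summed marker levels are sums of 2 raised to the deposited value. Transcript lengths are those of the longest GENCODE 29 transcript.

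Replicate numbers were checked for pairing from the data: deviations from group means correlated at 0.31, 0.22 and 0.35 for like-numbered stimulated 24 h libraries and -0.35 to 0.09 for unlike ones, and at 0.22, 0.28 and 0.43 for vehicle, so the block fit is given beside the calls and list counts it changes. At 6 h the like numbers gave 0.26, -0.15 and -0.11.

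Named genes were ACOD1, 8 inflammatory genes fixed by name, the 12 largest rises and falls called with and without WT replicate 3, without overlap and with the higher group mean at or above the median of all values, the members of each list with the largest changes, and the largest changes of the genotype difference. The last were taken among genes also called at 24 h in stimulated cells. Other genes were chosen after their values were seen. The comparison and the gene lists were chosen with earlier results of these data known. Alternatives were library weights, the replicate block, other filters, scalings and pseudocounts, a minimum change, a fit without trend and each library left out. The fit was tested on simulated data. Python 3.11.15 was used for tables and figures.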

Additional observations from a re-analysis of the deposited data

Results flagged for a closer look

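In 23 genes the KO minus WT difference itself was tested as different between treatments or between times (limma, adjusted p below 0.05, n = 3 libraries in each group). These 23 had the largest such changes among genes also called at 24 h in stimulated cells, with the same kinds of loci left out as above. Some of those 24 h calls did not hold. That of PLN, for example, ended whichever library was left out, and that of FXYD6 with any but KO replicate 2 left out.

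Between stimulated and vehicle-treated cells at 24 h the difference was more negative in stimulated cells for CCL7 (-4.50 on the log2 scale). The KO values of CCL7 with vehicle lay at the bottom of the scale, so this size depends on how low values are treated. The difference was more positive for MYH11 (3.47), the smooth muscle myosin, and for KCNMA1 (2.76), a calcium-activated potassium channel. It was also more positive for FXYD6 (3.06), a regulator of the sodium pump, for TMCC3 (3.73) and for the noncoding RNAs LINC03062 (2.94) and EGOT (3.10). EGOT lies within ITPR1 on the other strand, and whether strand was used in counting is not given in the sources used here, so reads of the pair cannot be told apart. OVOL1, a zinc finger factor of epithelia, was more negative in stimulated cells (-4.66), with 2.07, 3.98 and 2.86 in stimulated KO and 5.64, 5.75 and 5.43 in stimulated WT libraries.

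For LINC01531 (-5.50), ERVFRD-1 (-5.20), PLN (-5.13) and SBK3 (-4.50) all 3 stimulated KO libraries were at or near 0, so their sizes depend on how the deposited scale treats low values. ERVFRD-1 had values of 0.01, 0.00 and 0.01 in KO and 3.43, 4.19 and 4.15 in WT libraries. PLN had 0.01, 0.00 and 0.01 in KO and 2.23, 2.79 and 2.96 in WT libraries.

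Between 24 h and 6 h of stimulation the difference became more positive for ADAM12 (3.43), a metalloprotease, TBXAS1 (3.38), NLN (3.12), the peptidase neurolysin, EEF2K (2.87), the kinase of elongation factor 2, SLCO5A1 (2.75), an organic anion transporter family member, and SLA (2.37), a Src-like adaptor. It became more negative for OVOL1 (-4.94), PERM1 (-4.20), MEIS3 (-4.15), a homeobox gene, FAM167B (-3.81) and the mitochondrial creatine kinases CKMT1A (-3.56) and CKMT1B (-3.25). CKMT1A and CKMT1B are near-identical copies, so reads can be split between them and each value is uncertain.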

How the results depend on the processing

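Signs were followed only in the genes chosen by the rules for named genes. Among these no called result changed sign under any alternative, but 6 genes that did not pass the test did. With 1 library left out TLR8 ran from -0.067 (without WT replicate 3) to 2.27, TLR4 from -0.077 (without WT replicate 3) to 1.43, IL1B from -2.30 to 0.42 (without WT replicate 2), TNF from -0.49 to 0.50 (without WT replicate 2), IL10 from -0.36 to 0.12 (without WT replicate 2) and IL12B from -1.21 (without KO replicate 2) to 1.79, and IL12B was -0.12 with library weights. IL1B and IL12B were highest in replicate 2 of both genotypes, so leaving out replicate 2 of 1 genotype alone moves their difference. Counts of called genes moved widely. With library weights estimated from the data 2611 genes were higher and 2030 lower in stimulated KO cells at 24 h, with 3217 called in vehicle cells, 2373 for the treatment interaction and 2109 for 24 h against 6 h, and ACOD1 passed at -2.25. With only the libraries compared the counts were 0, 3, 284, 4 and 5. The replicate block gave 1392, 1072, 1451, 427 and 616, with ACOD1 past the threshold at -1.48. It ended none of the 724 higher or 523 lower calls. The stricter low-value filter gave 444, 204, 285, 9 and 64, from fewer genes tested. With a pseudocount of 5 the interaction count was 157, that for 24 h against 6 h was 299, and ACOD1 passed at -1.47. Leaving out 1 library at a time gave 188 to 1032 higher and 151 to 828 lower genes, 291 to 873 in vehicle cells, 18 to 202 for the interaction, 47 to 304 for 24 h against 6 h, and -2.06 to -1.18 for ACOD1. The cause of these shifts was not tested. Quantile normalization gave 722 and 523 and median centring 725 and 522, so between-library scaling changed little. A minimum change of 1 on the log2 scale left 504 and 463. Depth is unknown, so no counting error can be given, and the median standard error of a log2 change was 0.43.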

Other observations

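Several regulators of cell death, transcription and adhesion that fall outside the groups above also passed the test. Among 27 genes of the BCL2 family and cell death 3 were higher and 0 lower in KO cells, and 4 and 1 with the replicate block. The BH3-only killer gene BMF had values of 7.39, 6.74 and 6.97 in KO and 4.67, 6.06 and 3.80 in WT libraries (log2 change 2.19 ± 0.50, limma adjusted p = 0.0089). BCL2L11 (BIM), another BH3-only gene, read 7.44, 5.99 and 6.28 in KO and 5.06, 5.87 and 3.36 in WT libraries (1.80 ± 0.55, adjusted p = 0.0496). The BMF call ended without KO replicate 1 or WT replicate 3 (adjusted p 0.066 to 0.0947), and that of BCL2L11 without KO replicate 1, KO replicate 3, WT replicate 1 or WT replicate 3 (adjusted p 0.0677 to 0.358). Of 25 AP-1, EGR and NR4A family genes and relatives, KLF2, a factor that restrains myeloid activation, was lower (-2.80 ± 0.85, adjusted p = 0.0478), as was FOSL1 (-1.88 ± 0.50, adjusted p = 0.0252), and BATF was higher (1.32 ± 0.31, adjusted p = 0.0121). Their calls ended without KO replicate 1, KO replicate 3, WT replicate 1, WT replicate 2 or WT replicate 3 (adjusted p 0.0721 to 0.221), without KO replicate 1, KO replicate 3 or WT replicate 3 (adjusted p 0.087 to 0.141) and without KO replicate 3 or WT replicate 1 (adjusted p 0.0544 to 0.0651), in that order. With a pseudocount of 5 KLF2 had a change of -1.68 and was not called (adjusted p = 0.0757), and without the mean-variance trend neither KLF2 (0.0534) nor BCL2L11 (0.0556) was. With the replicate block 2 genes of this family list were higher and 6 lower. Among adhesion genes VCAM1, a ligand for leukocyte integrins, was higher (12.27, 11.71 and 11.42 in KO, 9.94, 10.20 and 7.75 in WT, 2.50 ± 0.60, adjusted p = 0.0132) and ITGB5 lower (-1.47 ± 0.28, adjusted p = 0.00181). The VCAM1 call ended without KO replicate 1 or WT replicate 3 (adjusted p 0.0902 to 0.142). Complement C3 was higher (12.56, 12.19 and 11.99 in KO, 10.31, 11.02 and 9.94 in WT, 1.82 ± 0.41, adjusted p = 0.00744), and its genotype difference was more positive with stimulation (2.57 ± 0.57, adjusted p = 0.0378). The C3 call ended without KO replicate 1 or WT replicate 3 (adjusted p 0.0594 to 0.0622).

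In vehicle-treated cells at 24 h 15 of 44 interferon-stimulated antiviral genes were lower in KO, with a list median of -1.30, where 1.75% of all genes were lower. In stimulated cells 1 of the 44 was lower, with a median of -0.16. The treatment interaction was not called for any gene of this list. Markers of myeloid precursors were higher in KO for 5 of 20 genes with vehicle, where 2.23% of all genes were higher. In stimulated cells 0 were higher and 1 lower, the lower one being CEBPE (6.35, 7.68 and 7.33 in KO, 8.77, 9.54 and 9.50 in WT, -2.15 ± 0.46, limma adjusted p = 0.00603). This call ended without KO replicate 1 (adjusted p 0.0711). With the replicate block 1 was higher and 3 lower in stimulated cells, and the treatment interaction was not called for any gene of this list.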
